A study of Homo sapiens with 6 samples.

Results

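The 10 genes described here are SLC1A4, SLC1A5, SLC3A2, SLC7A1, SLC7A5, SLC7A6, SLC7A11, SLC38A1, SLC38A2 and SLC38A5. They encode carriers that move glutamine and other amino acids across the plasma membrane or, for SLC3A2, the heavy chain that several carriers bind. All 10 are called carriers below. They were chosen by symbol from the SLC1, SLC3, SLC7 and SLC38 families, with earlier results of these data known, and each matched 1 of the 57820 gene rows in every library. Polyadenylated RNA was sequenced from U266, an established human multiple myeloma line of plasma cell origin, in 3 control samples and 3 samples transduced with a lentivirus that drives MYC from the EF1A promoter. Control cells are labelled only as control, and whether they carry a vector is not given in the sources used here, so transduction and MYC cannot be told apart. Separate cultures are not named for the samples of either group, so each test measures the spread between these samples, which may be technical. The comparison of MYC with control asks how raised MYC changes transcript levels in these cells.

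Amino acid carriers of these families work as exchangers, as facilitated carriers or as sodium-driven importers, and a cell combines these kinds. The sodium-coupled carriers of the SLC38 family load the cell with glutamine and small neutral amino acids, and exchangers such as SLC1A5 and the SLC7 carriers trade that pool for other amino acids outside. Several SLC7 proteins reach the surface only as light chains bound through a disulphide bridge to SLC3A2, also called CD98 or 4F2 heavy chain. Myeloma cells make large amounts of protein and are known for their use of glutamine, and MYC is known in other cells to raise several of these carriers.

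In these libraries 6 of the 10 carriers fell in the MYC samples: SLC3A2, SLC7A5, SLC1A5, SLC1A4, SLC7A1 and SLC7A11. SLC7A6 rose, and SLC38A1, SLC38A2 and SLC38A5 did not pass the test. The test was edgeR's quasi-likelihood F test on rounded expected counts with Benjamini-Hochberg adjustment over 17679 genes, with calls made below an adjusted p of 0.05. Calls were common in this comparison, at 60.8% of tested genes: 28.8% of all tested genes were called higher and 32.1% were called lower, against 10% and 60% of the carriers. The median log2 fold change (MYC minus control, as everywhere below) was -0.55 over the 10 carriers and -0.02 over all genes tested. At least 2-fold falls with a call were seen in 3 carriers, SLC3A2, SLC7A5 and SLC1A5, against 12.4% of all tested genes. With the GC offset described below they fell 1.75-fold, 1.65-fold and 1.44-fold, and SLC1A5 fell 1.82-fold without MYC replicate 3.

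The libraries held 27139978 to 158667309 expected counts, a 5.85-fold range in which a MYC library was the shallowest and another the deepest. MYC itself was at 3.91, 4.16 and 4.51 CPM (counts scaled to library size with TMM factors) in the controls and at 105, 110 and 92.1 CPM in the MYC libraries, 24.3-fold higher. Fold changes over all genes followed the GC content of the transcripts: they had a median of 0.25 (log2) in genes under 40% GC, -0.45 in genes from 55 to 60% and -1.07 in genes of 60% or more. MYC replicate 3 lay furthest along this trend, and the cause of the trend was not tested. Each carrier is therefore also given with a GC offset, which takes each library's trend of log2 CPM on transcript GC content out of the fit. With it 59.0% of 17202 genes were called (26.3% higher, 32.8% lower), and 7 carriers fell and 1 rose. In bulk RNA, fewer cells of a type and less RNA per cell cannot be told apart. All levels here are relative to the other RNA of the same library, so amounts per cell were not measured.

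Sequence around the transcription start sites is shown for carriers of both directions, since 6 members fell and 1 rose in the same libraries. RefSeq windows on GRCh38.p14 are 300 bases long, lie mostly upstream of an annotated start and reach just past it, and 9 of the 10 carriers had at least 1, 15 windows in all. SLC7A11 had no entry. Both strands were searched for 3 motifs: CACGTG, the E-box bound by MYC with MAX; TGATGNAA, a form of the amino acid response element bound by ATF4 with a C/EBP partner; and TGACNNNGC, the core of the antioxidant response element bound by NFE2L2. Among all 35116 windows in the table, 7.26% held the E-box, 3.62% the amino acid response element and 13.3% the antioxidant response element. Windows of 3 carriers held an E-box (SLC7A5, SLC1A5 and SLC38A5), those of 5 an amino acid response element (SLC3A2, SLC7A1, SLC1A4, SLC1A5 and SLC38A1) and those of 5 an antioxidant response element (SLC3A2, SLC7A5, SLC7A6, SLC7A1 and SLC1A5). Counted by window, as the shares above are, these were 3, 5 and 5 of the 15 windows of the carriers. No matches overlapped each other, and a match describes letters only, not a bound site. Capitals mark the matches in the windows below, each 5′ to 3′ on the strand of its gene.
SLC3A2, chr11:62881449-62881748, plus strand, 1 of 3 windows of this gene, with TGACTCAGC and, read on the opposite strand, TTACATCA: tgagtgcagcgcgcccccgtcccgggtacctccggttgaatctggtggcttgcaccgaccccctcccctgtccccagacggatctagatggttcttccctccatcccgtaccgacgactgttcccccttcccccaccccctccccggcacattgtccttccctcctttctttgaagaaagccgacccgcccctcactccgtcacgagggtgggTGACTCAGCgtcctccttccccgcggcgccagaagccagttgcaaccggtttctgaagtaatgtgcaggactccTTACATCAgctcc
SLC7A5, chr16:87869458-87869757, minus strand, with an E-box and TGACGCAGC: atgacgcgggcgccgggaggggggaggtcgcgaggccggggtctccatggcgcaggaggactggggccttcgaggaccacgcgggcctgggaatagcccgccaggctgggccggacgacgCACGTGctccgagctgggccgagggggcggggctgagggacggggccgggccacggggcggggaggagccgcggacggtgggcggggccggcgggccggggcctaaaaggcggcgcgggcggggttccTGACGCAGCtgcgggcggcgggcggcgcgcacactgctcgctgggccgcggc
SLC7A6, chr16:68264276-68264575, plus strand, with TGACGAGGC and TGACGTGGC: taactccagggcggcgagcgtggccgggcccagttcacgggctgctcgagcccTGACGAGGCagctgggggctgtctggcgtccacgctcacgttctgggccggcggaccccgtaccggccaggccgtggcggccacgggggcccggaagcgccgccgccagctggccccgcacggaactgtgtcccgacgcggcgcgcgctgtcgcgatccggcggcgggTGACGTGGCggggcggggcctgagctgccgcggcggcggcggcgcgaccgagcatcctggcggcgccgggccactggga
SLC7A1, chr13:29595639-29595938, minus strand, with TGACGCGGC and TGATGAAA: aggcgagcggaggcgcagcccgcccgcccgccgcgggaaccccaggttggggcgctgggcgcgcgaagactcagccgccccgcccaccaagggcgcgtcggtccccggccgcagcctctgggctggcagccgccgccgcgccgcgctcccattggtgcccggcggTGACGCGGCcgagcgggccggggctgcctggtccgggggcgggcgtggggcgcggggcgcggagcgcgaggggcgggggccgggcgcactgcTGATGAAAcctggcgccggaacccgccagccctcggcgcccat
SLC1A4, chr2:64989149-64989448, plus strand, 1 of its windows, with TTGCATCA, the opposite-strand form of TGATGCAA: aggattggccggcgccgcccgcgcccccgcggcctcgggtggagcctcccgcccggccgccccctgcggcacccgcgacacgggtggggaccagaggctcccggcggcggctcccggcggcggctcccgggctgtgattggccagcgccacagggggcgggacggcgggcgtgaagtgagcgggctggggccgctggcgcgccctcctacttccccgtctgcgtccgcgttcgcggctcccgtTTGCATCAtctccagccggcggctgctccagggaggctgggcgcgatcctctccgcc
The windows shown are rich in GC, from 62.7% in SLC3A2 to 82% in SLC7A1, and SLC7A6, the carrier that rose, shares the antioxidant core with carriers that fell. Counted from the start site, the opposite-strand amino acid response element of SLC1A4 begins at -7 and that of SLC3A2 at 37, the one in SLC7A1 begins at 7, and the E-box of SLC7A5 begins at -130.

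SLC3A2, the heavy chain shared by several light chains, was the most abundant carrier per length in both groups. It stood at 999, 1059 and 982 CPM in the controls and at 444, 421 and 376 CPM in the MYC libraries. Every MYC library lay far below every control, with no overlap between the groups. The mean fell from 1013 ± 40.5 to 414 ± 34.5 CPM (SD, n = 3), a log2 fold change of -1.29 ± 0.08 (SE; adjusted p = 4.81e-06, edgeR). With the GC offset the fall was -0.81 ± 0.05 (adjusted p = 8.49e-07, edgeR), 1.75-fold in place of 2.45-fold. The 1145 tested genes within 1 percentage point of its 58.3% GC had a median log2 fold change of -0.52. Its deposited effective length also differed, at 1359, 1366 and 1311 bases in the controls and 1241, 1170 and 1035 bases in the MYC libraries. In TPM, which is scaled for that length, control libraries held 984, 978 and 980 of SLC3A2 and MYC libraries 432, 448 and 483, so MYC replicate 3 was the lowest of its group in CPM and the highest in TPM.

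SLC7A5, known as LAT1, is the SLC3A2-bound exchanger that brings in leucine and other large neutral amino acids against glutamine. Its levels were 1365, 1440 and 1337 CPM in the controls and 638, 543 and 373 CPM in the MYC libraries. The groups did not overlap, but the MYC libraries spread widely and MYC replicate 3 was the lowest. From 1381 ± 53.1 to 518 ± 134 CPM (SD, n = 3), the log2 fold change was -1.41 ± 0.17 (adjusted p = 0.000149, edgeR), and it was -1.22 without MYC replicate 3. The offset for GC content brought it to -0.72 ± 0.09 (adjusted p = 0.000121, edgeR). SLC7A5 has the highest transcript GC content among the carriers, 60.3%, and the 1012 tested genes nearest to it in GC had a median of -0.76 before the offset.

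SLC7A6, another SLC3A2-bound light chain that exchanges cationic amino acids for neutral ones with sodium, went the other way. It stood at 76.6, 78.6 and 81.2 CPM in the controls and at 113, 113 and 107 CPM in the MYC libraries. All MYC libraries were above all controls. The rise from 78.8 ± 2.35 to 111 ± 3.55 CPM (SD, n = 3) came to 0.49 ± 0.05 on the log2 scale (adjusted p = 9.62e-05, edgeR), and 0.61 ± 0.04 with the GC offset (adjusted p = 1.35e-06, edgeR). Genes of like GC content, 1169 around its 54.6%, had a median of -0.21. On log2(TPM + 1), where 51.0% of genes were called (21.3% higher, 29.7% lower), 6 carriers fell and 1 rose, and the rise of SLC7A6 was smaller, 0.29 (adjusted p = 0.0282, limma, the highest over its alternatives without the offset, which reach down to 5.3e-14), with 22.9, 28 and 28 TPM in the controls and 31.0, 33 and 32.7 TPM in the MYC libraries. SLC7A6 overlaps SLC7A6OS, a gene on the opposite strand named here after its values were seen, and the libraries do not mark strand. SLC7A6OS was at 46.3 ± 1.07 and 49.0 ± 1.66 CPM (SD, n = 3), which was no call (log2 fold change 0.08 ± 0.06, adjusted p = 0.230, edgeR).

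SLC7A11, or xCT, is the SLC3A2-bound light chain that brings in cystine in exchange for glutamate. Its levels were 239, 207 and 229 CPM in the controls and 161, 177 and 193 CPM in the MYC libraries. The groups did not overlap, though the lowest control and the highest MYC library lay close together. The fall was small, from 225 ± 16.4 to 177 ± 16 CPM (SD, n = 3; log2 fold change -0.35 ± 0.08, adjusted p = 0.00600, edgeR). SLC7A11 is the most AT-rich carrier, at 35.4% GC, and the 191 tested genes around that value had a median of 0.20. With the GC offset its fall was larger, -0.63 ± 0.04 (adjusted p = 6.38e-07, edgeR), 1.55-fold in place of 1.27-fold. SLC7A11-AS1, on the opposite strand and named after its values were seen, moved from 10.1 ± 0.318 to 12.6 ± 0.538 CPM (SD, n = 3). It was called higher (log2 fold change 0.32 ± 0.07, adjusted p = 0.00480, edgeR), and the call ended with the GC offset (0.01 ± 0.07, adjusted p = 0.882, edgeR). Its reads cannot be told apart from those of SLC7A11 by strand.

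**Figure D1:**
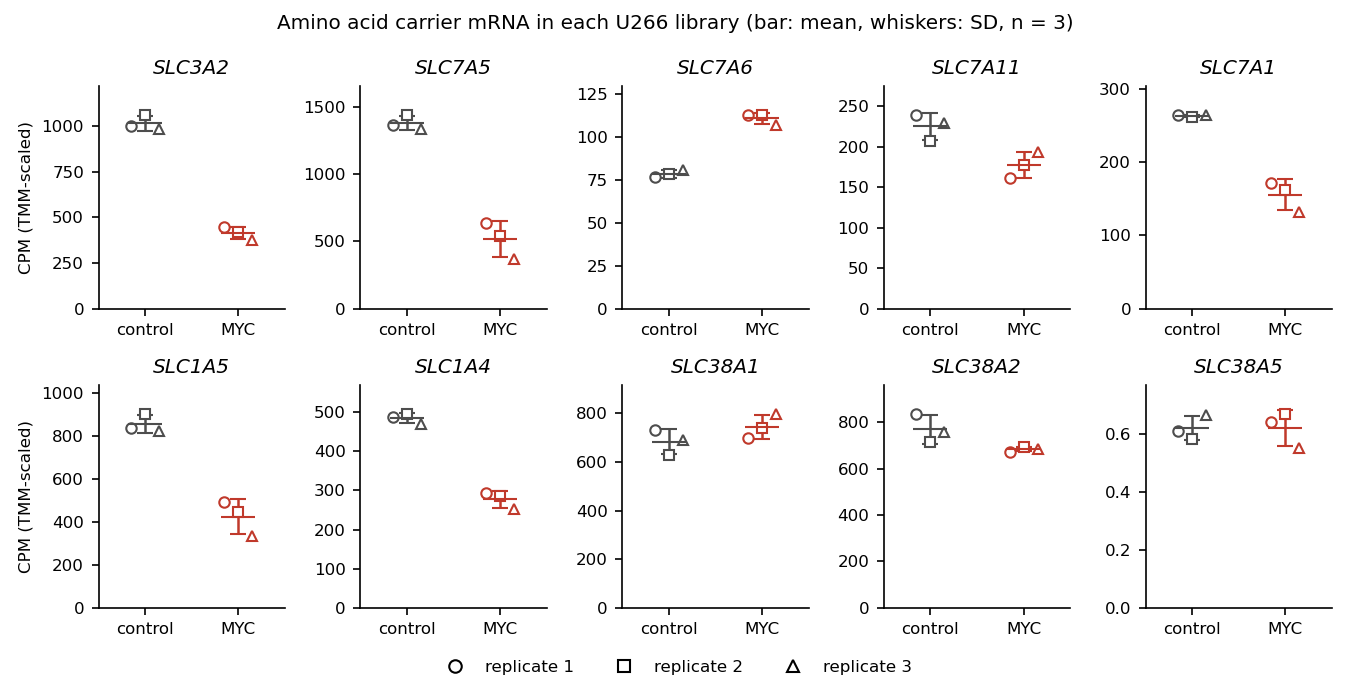
Level of each of the 10 carrier transcripts in every U266 library, in CPM with TMM factors on a linear axis from 0 (marker shape: replicate number; bar and whiskers: mean and SD of 3 libraries). For SLC3A2, SLC7A5, SLC1A5, SLC1A4, SLC7A1 and SLC7A11 all MYC libraries lie below all controls, for SLC7A6 all lie above, and SLC38A1 and SLC38A5 overlap.

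SLC7A1, or CAT1, carries arginine, lysine and ornithine without a heavy chain. It was at 264, 261 and 264 CPM in the controls and at 172, 162 and 132 CPM in the MYC libraries. The controls were nearly equal and the MYC libraries all lay well below them. The mean fell from 263 ± 1.53 to 155 ± 20.8 CPM (SD, n = 3; log2 fold change -0.76 ± 0.09, adjusted p = 0.000160, edgeR). With the GC offset it fell by 0.63 ± 0.06 on the log2 scale (adjusted p = 1.71e-05, edgeR), while 1163 genes around its 54.8% GC had a median of -0.22 without the offset.

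SLC1A5, or ASCT2, is the sodium-dependent exchanger through which many proliferating cells take up glutamine. It was at 837, 900 and 821 CPM in the controls and at 494, 444 and 334 CPM in the MYC libraries. The groups were far apart, and MYC replicate 3 was again the lowest. The log2 fold change was -1.01 ± 0.13 (852 ± 41.8 to 424 ± 81.9 CPM, SD, n = 3; adjusted p = 0.000225, edgeR), -0.86 without MYC replicate 3 and -0.52 ± 0.07 with the GC offset (adjusted p = 0.000164, edgeR). The 1140 tested genes around its 58.4% GC had a median of -0.53 without the offset.

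SLC1A4, or ASCT1, is the related exchanger for alanine, serine, cysteine and threonine. Levels of 488, 494 and 469 CPM in the controls stood against 294, 285 and 252 CPM in the MYC libraries. Both groups were tight and did not overlap. SLC1A4 fell from 484 ± 13.0 to 277 ± 21.9 CPM (SD, n = 3; log2 fold change -0.80 ± 0.07, adjusted p = 3.12e-05, edgeR), and its change was -0.67 ± 0.05 with the GC offset (adjusted p = 3.08e-06, edgeR). SLC1A4 and SLC7A1 have the same GC content, 54.8%, and fell 1.75-fold and 1.69-fold. SLC7A6, at 54.6%, rose 1.40-fold, so carriers of nearly equal GC content went both ways.

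SLC38A1, or SNAT1, is a sodium-coupled importer of glutamine. Its levels were 731, 630 and 689 CPM in the controls and 699, 740 and 796 CPM in the MYC libraries, and the groups overlapped. The log2 fold change was 0.12 ± 0.08, with a 95% interval from -0.05 to 0.30 (adjusted p = 0.191, edgeR). With the GC offset the value turned to -0.13 ± 0.05 (adjusted p = 0.0670, edgeR). SLC38A1 therefore has no stated direction, although it was called lower with the offset over all transcripts (adjusted p = 0.0405, edgeR) and, with the offset, without control replicate 2 (0.0310) or MYC replicate 3 (0.0425). Over all fits with the offset its adjusted p ran from 0.0310 to 0.168.

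SLC38A2, or SNAT2, is the sodium-coupled importer known to be induced when amino acids run short. It was at 834, 713 and 759 CPM in the controls and at 673, 691 and 686 CPM in the MYC libraries. The CPM of the groups did not overlap, but TPM did: control libraries held 254, 209 and 228 TPM and MYC libraries 186, 200 and 223 TPM. The log2 fold change was -0.17 ± 0.07, with a 95% interval from -0.33 to -0.01, and did not pass the test (adjusted p = 0.0614, edgeR). SLC38A2 has a GC content of 37.0%, near which 413 tested genes had a median of 0.22, and with the GC offset it was called lower, at -0.46 ± 0.06 (adjusted p = 7.31e-05, edgeR). It was also called with limma-voom (adjusted p = 0.0459), in the fit of genes with a mean CPM of at least 5 (adjusted p = 0.0329, edgeR) and without control replicate 2 (adjusted p = 0.0205, edgeR), and over all alternatives without the offset its adjusted p ran from 0.0205 to 0.143.

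SLC38A5, or SNAT5, a carrier of glutamine, histidine and glycine that can run in both directions, was barely detected. Control libraries held 0.612, 0.582 and 0.665 CPM and MYC libraries 0.643, 0.668 and 0.552 CPM, from 17 to 104 expected counts. The groups overlapped, the log2 fold change was 0.01 ± 0.17 with a 95% interval from -0.39 to 0.40 (adjusted p = 0.979, edgeR), and a change within that interval was not detectable at this depth. Of the 10 carriers, 8 thus had CPM values that did not overlap between the groups, against 67.1% of all tested genes, of which those lower in MYC were 35.1% of all.

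**Figure D2:**
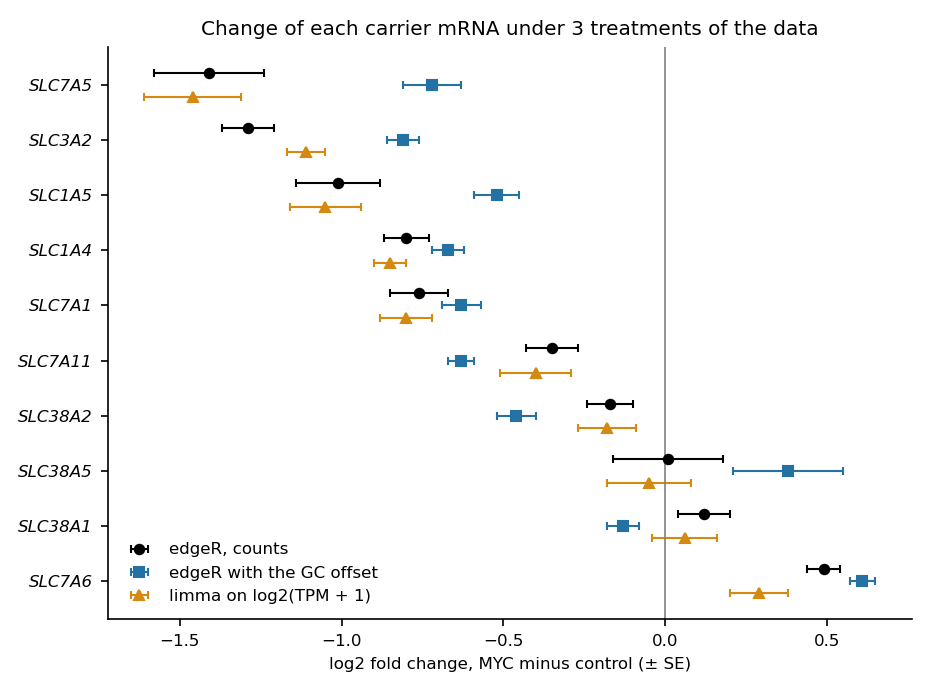
Log2 fold change (MYC minus control, with SE) of each carrier in 3 fits: edgeR on counts, edgeR with the GC offset, and limma on log2(TPM + 1). SLC7A5, SLC3A2, SLC1A5, SLC1A4, SLC7A1 and SLC7A11 lie below 0 and SLC7A6 above 0 in all 3, while SLC38A1 and SLC38A5 change side.

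The GC offset narrowed the differences among the carriers that fell. Their log2 fold changes ran from -1.41 (SLC7A5) to -0.35 (SLC7A11) on counts, and from -0.81 (SLC3A2) to -0.46 (SLC38A2, not called on counts in the fit of all 6 libraries described above) after it. The order changed too: SLC7A5 had the largest fall on counts and SLC3A2 with the offset. The median of the 10 carriers was -0.58 with the offset, against -0.05 for all genes. SLC3A2 (-1.29 against -0.52) and SLC7A6 (0.49 against -0.21) lay furthest from the median of genes of like GC content among the carriers called on counts, as the plot against GC content shows.

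**Figure D3:**
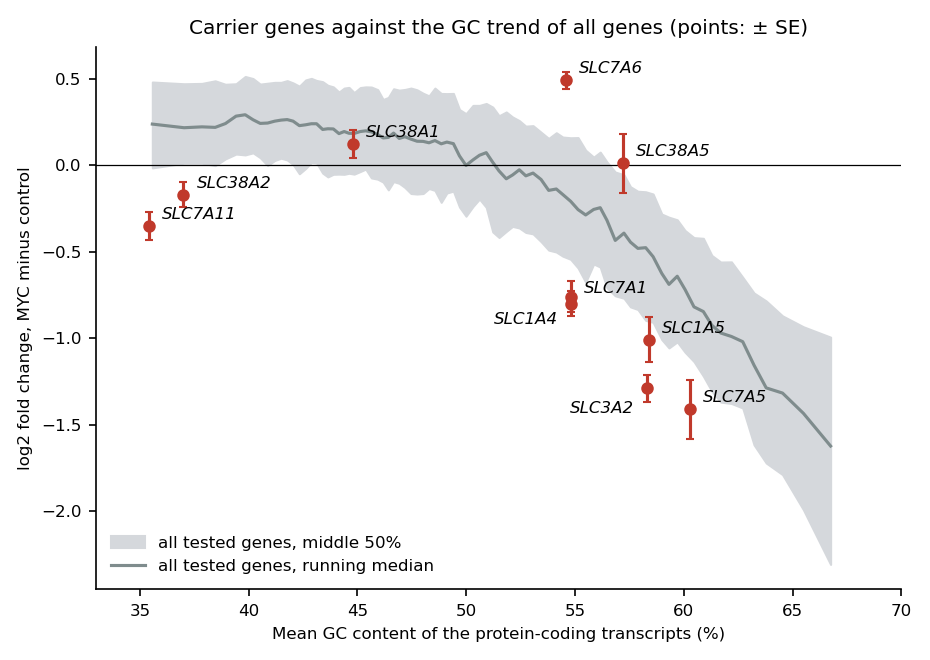
Log2 fold change (MYC minus control) of the carriers, with SE, against the mean GC content of the protein-coding transcripts of the gene in percent (line: running median of all tested genes; band: their middle 50%). SLC7A6 lies well above the band at 54.6% GC and SLC38A5 just above it, SLC38A1 lies within it, and the 6 carriers that fell and SLC38A2 lie below it.

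Per transcript length, the control cells ranked their carriers SLC3A2 (981 ± 2.94 TPM, SD, n = 3), SLC1A5 (593 ± 7.95), SLC7A5 (463 ± 8.48), SLC38A2 (230 ± 22.8), SLC1A4 (152 ± 4.48), SLC38A1 (133 ± 13.7), SLC7A1 (48.2 ± 1.85), SLC7A11 (33.2 ± 3.24), SLC7A6 (26.3 ± 2.97) and SLC38A5 (0.913 ± 0.0493). No neighbours in that order overlapped between libraries. In the MYC libraries SLC3A2 (455 ± 26.1 TPM) and SLC1A5 (289 ± 47.2 TPM) still led, and SLC38A2 (203 ± 18.5 TPM) stood before SLC7A5 (171 ± 37.2 TPM). There the ranges of SLC38A2 and SLC7A5, of SLC7A5 and SLC38A1, and of SLC7A1 and SLC7A11 overlapped, so the order within these pairs is not fixed by the data. SLC7A6 (32.3 ± 1.07 TPM) moved from below SLC7A1 and SLC7A11 to above both (27.4 ± 2.42 and 24.9 ± 3.17 TPM).

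The summed level of the 10 carriers, relative to the other RNA of each library, fell from 2660 ± 44.0 to 1426 ± 27.5 TPM (SD, n = 3). The groups did not overlap in this sum (2-sided exact permutation p = 0.10, the smallest that 3 against 3 libraries allow). SLC38A1 and SLC38A2, the sodium-coupled importers, made up 14.8, 12.5 and 13.7% of that sum in the controls, and 21.6, 23.5 and 27.0% of it with MYC. Their share was higher in every MYC library than in every control, by 10.4 percentage points on average (exact permutation p = 0.10). Neither gene was called in the edgeR fit on counts, SLC38A2 was called lower with the GC offset (-0.46), and the sum around them was smaller. The shares carry no GC offset, with which the change was -0.81 for SLC3A2, -0.72 for SLC7A5, -0.52 for SLC1A5 and -0.13 for SLC38A1. SLC3A2 made up 36.9 ± 0.497% and 31.9 ± 2.46%, SLC7A5 17.4 ± 0.254% and 11.9 ± 2.40% (SD, n = 3), neither with overlap, and the share of SLC1A5 overlapped between the groups (22.3 ± 0.571% and 20.2 ± 2.95%).

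**Figure D4:**
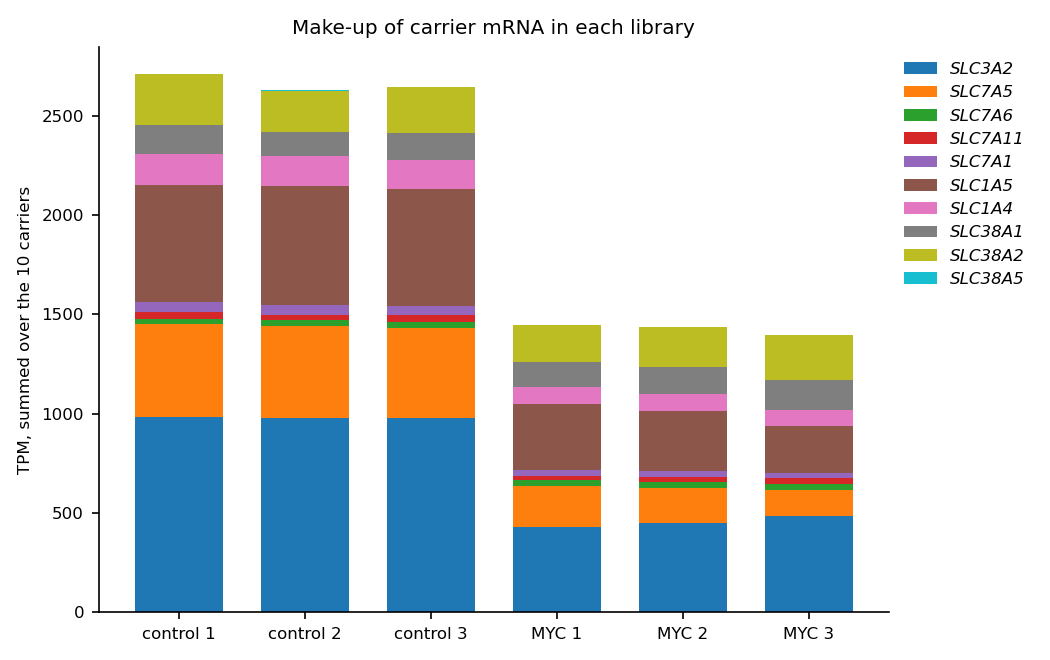
Stacked TPM of the 10 carriers in each of the 6 libraries (y axis from 0; each colour is 1 gene). The stacks reach 2629 to 2711 TPM in the controls and 1394 to 1446 TPM in the MYC libraries, and the bands of SLC38A1 and SLC38A2 keep nearly their height while those of SLC3A2, SLC7A5 and SLC1A5 shrink.

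The balance of light chains to their heavy chain was taken as the summed TPM of 6 light chains (SLC7A5, SLC7A6, SLC7A7, SLC7A8, SLC7A10 and SLC7A11) over the TPM of SLC3A2. Control libraries gave 0.546, 0.543 and 0.535, and MYC libraries 0.613, 0.542 and 0.412. The MYC libraries lay on both sides of the controls, and the difference of -0.0192 was within their spread (2-sided exact permutation p = 0.80). Its sign turned in CPM (0.296, exact permutation p = 0.10) and, in TPM, without MYC replicate 3 (0.0359, exact permutation p = 0.60), so no direction is given for this ratio.

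Single light chains went different ways against SLC3A2. SLC7A5 per SLC3A2 in TPM was 0.478, 0.475 and 0.463 in control and 0.472, 0.395 and 0.270 in MYC libraries, which overlap. SLC7A6 per SLC3A2 was 0.0268 ± 0.00310 and 0.0710 ± 0.00305 (SD, n = 3), and SLC7A11 per SLC3A2 0.0338 ± 0.00321 and 0.0546 ± 0.00387. Both ratios were higher in every MYC library (exact permutation p = 0.10 each), SLC7A6 with a rising numerator and SLC7A11 with one that fell less than the heavy chain. The ratios carry no GC offset. With it the log2 fold change was -0.63 for SLC7A11, 0.61 for SLC7A6 and -0.81 for SLC3A2. SLC7A7, the y+LAT1 light chain, is close to SLC7A6 in function and fell from 6.89 ± 0.336 to 4.95 ± 0.178 CPM (SD, n = 3; log2 fold change -0.48 ± 0.08, adjusted p = 0.00128, edgeR). SLC7A8, or LAT2, rose from 5.07 ± 0.522 to 7.52 ± 1.07 CPM (0.56 ± 0.13, adjusted p = 0.00487, edgeR). Both kept their direction and call with the GC offset, at -0.47 and 0.65, and both were named after their values were seen.

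Most other plasma membrane amino acid carriers had low counts in these cells: of 31 matched genes, 12 passed the expression filter, of which 5 rose and 4 fell (median log2 fold change 0.22, or 0.48 with the GC offset, where 6 rose and 4 fell). SLC6A9, the glycine carrier GlyT1, fell from 274 ± 17.0 to 62.9 ± 14.1 CPM (SD, n = 3), 4.37-fold without and 2.55-fold with the GC offset (log2 fold change without it -2.13 ± 0.15, adjusted p = 1.13e-05, edgeR). SLC6A6, the taurine carrier, rose from 25.5 ± 0.457 to 44.9 ± 3.28 CPM, 1.76-fold. SLC16A10 and SLC1A2, carriers of aromatic amino acids and of glutamate, were called higher from very low levels (0.0383 to 0.277 CPM and 0.0965 to 0.410 CPM), and both calls ended on log2(TPM + 1), at 0.25 and 0.15 (adjusted p = 0.0522 and 0.138, limma). Among 20 tested genes listed as carriers of lysosomes and mitochondria 9 rose and 7 fell, and with the offset 8 and 6. Where each of these proteins lies in the cell was not measured, that of SLC38A10 included. Beside both lists, 28.8% of all tested genes were called higher and 32.1% lower (26.3% and 32.8% with the offset). SFXN1, the mitochondrial serine carrier, rose 1.72-fold (1.49-fold with the offset) and SLC25A12, an aspartate-glutamate carrier, 1.54-fold (1.29-fold with the offset). SLC38A10 fell 3.03-fold (1.40-fold with the offset) and SLC66A1, the lysosomal carrier of cationic amino acids, 2.67-fold (1.5-fold with the offset).

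Genes of the amino acid response, which ATF4 drives when amino acids are short and which is known to include several of these carriers, were lower with them. The list used also holds ATF4 itself and, upstream of it, the kinases EIF2AK4 and EIF2AK3. EIF2AK3, named after its values were seen, was called lower (-0.49). Of 23 tested genes 20 fell and 0 rose (edgeR), with a median log2 fold change of -0.89. With the GC offset 20 fell, 0 rose and the median was -0.64. Beside these counts, 32.1% of all tested genes were called lower and 28.8% higher (32.8% and 26.3% with the offset). At an unadjusted p under 0.05 (edgeR) 1 response gene was higher, EIF2AK4, named after its values were seen. DESeq2 and limma-voom each called 1 response gene higher. TRIB3, a pseudokinase, fell from 347 ± 8.26 to 80.2 ± 4.82 CPM (SD, n = 3; -2.11 ± 0.06, adjusted p = 2.43e-07, edgeR) and by 1.01 on the log2 scale with the offset. ATF3 was at 121 CPM in each control and at 63.4, 63.6 and 64.2 CPM in the MYC libraries, and fell 1.90-fold, or 2.00-fold with the offset. ATF5 fell 3.43-fold, or 1.75-fold with the offset. CEBPB, a partner of ATF4, was 2.53-fold lower on counts. With the offset CEBPB was at 0.15 ± 0.13 on the log2 scale and was not called (adjusted p = 0.364, edgeR). The transcript of ATF4, chosen after its values were seen, was at 1222 ± 11.7 and 1116 ± 26.9 CPM and was not called (-0.13 ± 0.06, adjusted p = 0.0707, edgeR), nor with the offset (0.03). It was called lower with total counts only, with limma-voom, among genes with a mean CPM of at least 5 and without control replicate 1.

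Among 39 genes through which mTORC1 senses amino acids, 10 rose and 18 fell (6 and 20 with the GC offset). For this list and those below, the shares over all tested genes were 28.8% higher and 32.1% lower (26.3% and 32.8% with the offset). SESN2, a leucine sensor that also belongs to the amino acid response list, fell from 476 ± 18.1 to 176 ± 34.5 CPM (SD, n = 3), 2.70-fold, or 1.77-fold with the offset. WDR24, of the GATOR2 complex, and MLST8, an mTOR subunit, fell 3.14-fold and 3.15-fold, or 1.39-fold and 1.51-fold with the offset, and DEPTOR, an mTOR inhibitor, rose 1.45-fold (1.32-fold). Of 9 genes that turn cystine into glutathione or regulate that use, 2 rose and 3 fell. GGT1, which cleaves extracellular glutathione, fell 2.89-fold (1.64-fold with the offset), and OPLAH, which recovers glutamate from oxoproline, fell 5.59-fold (2.15-fold). GGCT rose 1.37-fold (1.14-fold), and KEAP1, the inhibitor of NFE2L2, was lower on counts and at 0.02 with the offset. Of 7 tested ubiquitin ligases and surface partners of the carriers, 3 rose and 2 fell, and with the offset 1 rose and 4 fell. ITGB1, the integrin chain that binds SLC3A2, rose 1.83-fold (1.5-fold), BSG fell 3.03-fold (1.73-fold), ARRDC1 fell 3.20-fold (1.43-fold), and the call of NEDD4L (0.27) ended with the offset (0.04).

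**Figure D5:**
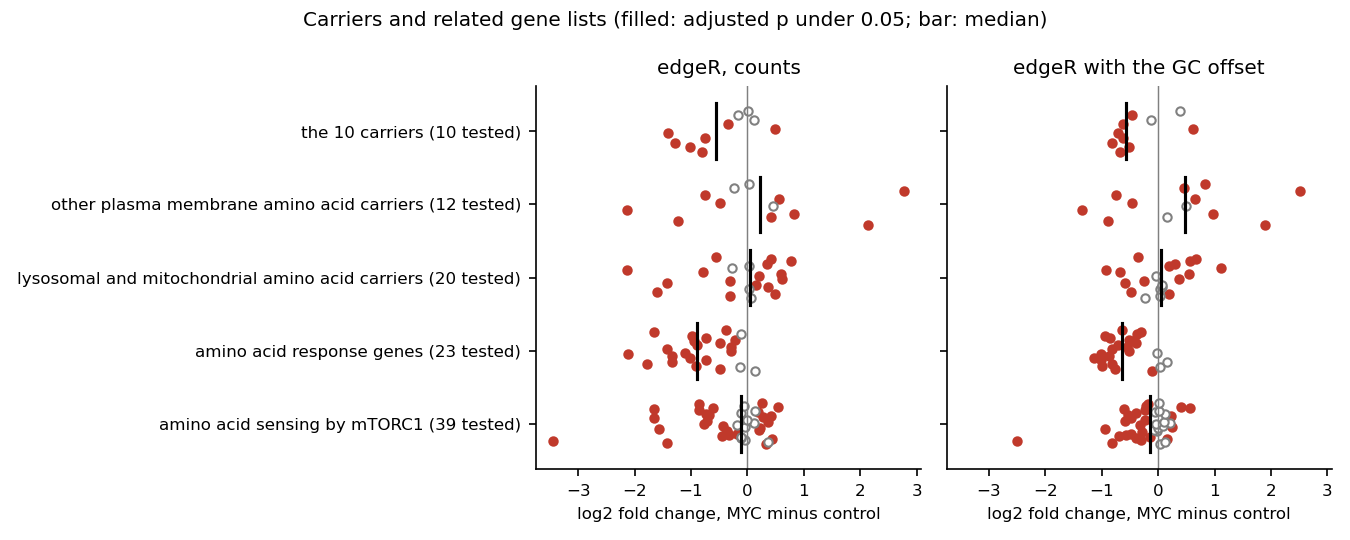
Log2 fold change (MYC minus control) of every tested gene in the 10 carriers and in 4 related lists, on counts (left) and with the GC offset (right; filled points: adjusted p under 0.05, edgeR; bar: median). No response gene that was called lies above 0 in either panel, while the other lists hold called genes on both sides.

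The genes whose centred log2 CPM across the 6 libraries was most like that of SLC3A2, among 10563 genes with a mean CPM of at least 5, were IFT140 (root mean square distance 0.0222), FAM131A (0.0331) and UPP1 (0.0340). For SLC1A5 they were MAST1 (0.0147), PRKCSH (0.0204) and PPP6R1 (0.0284). Since they were picked for this closeness, all 6 genes necessarily fell by about as much as their carrier, between 0.96 and 1.31 on the log2 scale. Their transcripts hold 59.2 to 62.8% GC, above that of SLC3A2 and SLC1A5, and the match was made without the GC offset.

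Plasma cell markers showed the labelled identity in both groups, and their summed level was lower with MYC: 6940 to 7466 CPM in the controls and 3519 to 4360 CPM in the MYC libraries, with 6 of 10 lower and 3 higher (7 and 2 with the GC offset). Most of that difference came from IGHE, the epsilon heavy chain gene of the antibody class U266 makes, named after its values were seen, which fell from 2931 ± 248 to 707 ± 269 CPM (SD, n = 3), 4.15-fold, or 2.09-fold with the offset. SDC1, a plasma cell surface proteoglycan, fell from 985 ± 54.5 to 437 ± 53.8 CPM (2.25-fold, or 1.29-fold with the offset), IRF4 from 775 ± 6.76 to 475 ± 26.7 CPM (1.63-fold, or 1.91-fold) and PRDM1 from 150 ± 0.600 to 108 ± 4.92 CPM (1.39-fold, or 1.56-fold), and CD38 rose from 1.22 ± 0.0199 to 7.0 ± 0.490 CPM (SD, n = 3). Of 5 tested B cell markers 1 rose (PAX5, 0.422 to 2.00 CPM) and 3 fell, with sums of 51.9 to 57.5 CPM in the controls and 34.0 to 43.3 CPM in the MYC libraries. Markers of T and NK cells summed to 8.82 to 11.5 and 13.0 to 15.4 CPM (3 of 5 higher, 2 lower, GNLY from 0.0589 to 1.5 CPM), and those of epithelial cells to 3.83 to 4.63 and 6.64 to 7.70 CPM (1 of 2 higher, 0 lower). Myeloid markers summed to 2.43 to 3.35 and 2.46 to 3.10 CPM (1 of 3 lower) and stromal markers to 9.81 to 12 and 9.56 to 10.7 CPM (2 of 4 higher, 1 lower). All marker counts stand beside 28.8% of all tested genes called higher and 32.1% called lower (26.3% and 32.8% with the offset). The part of any other cell type in the carrier results was not tested.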

How the data were processed

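Poly-A RNA-seq of 6 U266 samples was used, 3 per group. Per the submitters' processing notes, cutadapt, TopHat2 and the genome build GRCh37 were used. For versions and annotation, nothing is given in the sources used here. The library kit does not mark strand, per the labels' protocols. The authors' deposited RSEM tables have 57820 rows and, per the file headers, give for each gene its effective length in bases, its expected count and its TPM. Symbols matched 51996 identifiers, holding 98.3% of counts.

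Expected counts, which need not be whole, were rounded. R 4.3.3 and edgeR 4.0.16 then ran the quasi-likelihood F test (filterByExpr, TMM, group only, Benjamini-Hochberg adjustment). The SE comes from the F statistic. Deposited TPM served for levels between genes and, as log2(TPM + 1) and log2(TPM + 0.1), for limma 3.58.1. Counts for 17343 genes were also simulated, with few genes changed and no GC trend. There edgeR found 46.2% of 65 genes changed 1.5-fold, 84.1% of 63 changed 2-fold and 95.5% of 66 changed 4-fold. Of its 155 calls 9 were false. Since 60.8% of genes were called in the data, these values do not measure recovery or error in this comparison. Reads carry no molecular identifiers, and the spread between libraries is the error given.

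For the GC offset, a loess curve (span 0.4) of log2 CPM (prior count 2) was fitted per library on the mean GC content of the gene's protein-coding transcripts in GENCODE 29, and subtracted. That definition was chosen after seeing the data, and one over all transcripts was added. Other settings were DESeq2 1.42.0, limma-voom, scaling by RLE or by totals alone, filters of none or of a mean CPM of at least 5, offsets for effective length, blocking on replicate number, omission of MYC with the 20 most abundant genes, and omission of each library.

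The members and lists (other carriers of the plasma membrane, of lysosomes and mitochondria, amino acid response, mTORC1 sensing, glutathione, ligases and partners, and markers of 6 cell types) were chosen with earlier results of these data known. Named are all members and MYC, up to 4 called genes per list by smallest adjusted p, up to 2 abundant ones where under 2 were called, and the 3 genes nearest in pattern to SLC3A2 and SLC1A5. Of each list's names, only some are printed.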

Additional observations from a re-analysis of the deposited data

How the results depend on the processing

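Over 20 alternative settings the calls and directions of SLC3A2, SLC7A5, SLC7A6, SLC7A11, SLC7A1, SLC1A5 and SLC1A4 were the same each time. SLC38A5 had few counts in every library (17 to 104). Its sign turned with total counts only (-0.01), no filter (-0.01), the effective length offset (-0.06), log2(TPM + 1) (-0.05) and log2(TPM + 0.1) (-0.13), and ran from -0.08 to 0.09 with each library left out. It was not tested at a mean CPM of at least 5, where 3695 of 10566 tested genes were lower in place of 5671 of 17679.

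With the GC offset, the offset with the replicate block and the offset over all transcripts, log2 fold changes turned for SLC38A1 (-0.13, -0.13, -0.14, the last called), CEBPB (0.15, 0.14, 0.29), KEAP1 (0.02, 0.02, 0.06), ATF4 (0.03, 0.03, 0.08) and SLC7A6OS (-0.05, -0.05, -0.07). In these 3 fits 6 sensing genes rose in place of 10, and of the ligases and partners 1 rose and 4 fell. Sensing genes that rose numbered 6 on log2(TPM + 1), and 6 to 11 with each library left out (6 without control replicate 3). Other plasma membrane carriers that rose numbered 2 on log2(TPM + 1), 3 on log2(TPM + 0.1) and 2 at a mean CPM of at least 5. Those that fell numbered 2 at that minimum and with the offset over all transcripts. In the amino acid response 1 gene rose with RLE factors, DESeq2, limma-voom, a mean CPM of at least 5 and the effective length offset, and 4 glutathione genes rose with RLE factors and DESeq2. The light chain to SLC3A2 TPM ratio differed by 0.296 in CPM and by -0.0644 to 0.0359 with each library left out. The causes were not tested.

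Replicate numbers did not pair the samples: same-numbered deviations correlated at -0.0472, 0.0779 and 0.11, and not every sample correlated best with its own number. With the replicate block 4649 genes were higher and 5380 lower, and the counts of carriers did not change.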
